A study of Homo sapiens with 16 samples.

Results

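The cadherin and desmosome genes described here are 10 genes chosen by name: the classical cadherins CDH1 and CDH3, the desmogleins DSG2 and DSG3, the desmocollins DSC2 and DSC3, the armadillo proteins PKP1, PKP3 and JUP, and the plakin DSP. All 10 were found among the 58721 genes of the count table. Classical cadherins are membrane proteins that join neighbouring epithelial cells at adherens junctions, where catenins tie them to actin. Desmosomes are the stronger spot-like junctions, in which desmogleins and desmocollins bind across the gap between cells, plakoglobin and plakophilins bind their tails, and desmoplakin ties the complex to keratin filaments. Urothelium and its tumours hold both kinds of junction, and loss of E-cadherin with gain of other cadherins is a textbook mark of a less epithelial state.

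Expression was measured by 3′ mRNA sequencing in 16 libraries of bladder cancer cell lines, RT112, a luminal papillary model cultured in RPMI, and SCaBER, a basal/squamous model cultured in DMEM, both with FBS. Each library came from cells given 10 nM of a small interfering RNA (siRNA) per the labels, with siFOXA1.1 or siFOXA1.2 directed at the pioneer transcription factor FOXA1 and siControl.1 or siControl.2 as controls, and with no untransfected cells. Each siRNA had 2 libraries per line, which the labels number as experiment batch replicates 1 and 2. Nothing in the labels says whether these were separate cultures, so p-values measure the spread between these libraries, which may be technical. Line and medium cannot be told apart, and in bulk RNA fewer cells with a transcript and less transcript per cell cannot be told apart either.

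Library totals ranged from 6622470 to 7604580 counts in RT112 and from 4528510 to 6914950 in SCaBER, so 3 counts, the limit of detection used here, stood for 0.394 to 0.453 and 0.434 to 0.662 CPM (counts scaled to a common library total). FOXA1, the target, had 18.2 to 35.0 CPM in the 4 RT112 control libraries, 1.32 and 3.24 under siFOXA1.1, and 9.18 and 16.0 under siFOXA1.2. The fall passed the test under siFOXA1.1 (log2 fold change -3.44 ± 0.47 SE, edgeR adjusted p = 2.19e-05) and not under siFOXA1.2 (-1.10 ± 0.39, edgeR adjusted p = 0.205), although no siFOXA1.2 library reached the lowest control. In SCaBER FOXA1 had 0 to 15 counts in any library, too few to check the knock-down. The mitochondrial share of counts was 25.7 to 28.2% under siFOXA1.1 in RT112 against 18.0 to 21.2% in its controls and 10.3 to 12.1% in SCaBER. Of the marker lists, 4 of 6 luminal markers (GATA3, PPARG, UPK1A, UPK2) were above the limit in every RT112 library with UPK3A at 0, as were 5 of 6 basal markers. In every SCaBER library 6 of 6 basal and 3 of 6 luminal markers (GATA3, PPARG, UPK2) were above it, with KRT20, UPK1A and UPK3A at 0. Of 6 fibroblast markers COL1A1 and LUM were above the limit in every library of both lines (LUM 94.6 ± 35.2 CPM in RT112 and 12.3 ± 8.75 in SCaBER, SD, n = 8) and COL3A1 and DCN were at 0 in both, and of the leukocyte markers PTPRC and CD3E were.

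The members lie partly in clusters, given here in GRCh38.p14 from RefSeq. CDH3 (chr16:68645310-68733771) and CDH1 (chr16:68737292-68835537) are neighbours, and DSC3 (chr18:30989365-31042742), DSC2 (chr18:31058840-31102421), DSG3 (chr18:31447741-31478702) and DSG2 (chr18:31498177-31549008) follow one another. DSP is at chr6:7541671-7586714, PKP1 at chr1:201283506-201332989, PKP3 at chr11:392596-404908 and JUP at chr17:41754609-41786711. Genes that overlap a member and have a row of their own had few counts: DSCAS, antisense in the desmocollin region, had 0 to 7 in a library, FTLP14 within CDH1 had 0 to 45 and HSPE1P5 within CDH3 had 0 to 19. No row was matched to CDH3-AS1 or LOC100418868 (both at CDH3), DSP-AS1, LOC124904377 (at DSC2) or LOC124904345 (at DSC3). Reads shared with them cannot be told apart.

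The 250 bases before the start are shown for DSP, which had the smallest p of the members under siFOXA1.1, and for DSC3 and DSC2, the neighbouring desmocollins, which moved in opposite directions under siFOXA1.1 in RT112. They are printed 5′ to 3′ on the strand of the gene, from RefSeq, with motif matches in capitals. The windows are chr6:7541421-7541670 (plus strand) for DSP, chr18:31042743-31042992 (minus strand) for DSC3, and chr18:31102422-31102671 and chr18:31101261-31101510 (both minus strand) for 2 starts of DSC2.
DSP: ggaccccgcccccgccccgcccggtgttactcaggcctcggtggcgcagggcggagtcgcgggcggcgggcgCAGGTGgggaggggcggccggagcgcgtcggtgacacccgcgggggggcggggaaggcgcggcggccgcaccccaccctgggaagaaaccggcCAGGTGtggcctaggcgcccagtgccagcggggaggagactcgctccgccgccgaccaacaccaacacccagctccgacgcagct
DSC3: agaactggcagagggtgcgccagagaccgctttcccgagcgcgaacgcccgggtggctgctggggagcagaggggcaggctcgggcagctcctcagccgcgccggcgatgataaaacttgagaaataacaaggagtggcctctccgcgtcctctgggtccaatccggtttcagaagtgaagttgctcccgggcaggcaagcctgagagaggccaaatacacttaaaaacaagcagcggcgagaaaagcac
DSC2, upstream start: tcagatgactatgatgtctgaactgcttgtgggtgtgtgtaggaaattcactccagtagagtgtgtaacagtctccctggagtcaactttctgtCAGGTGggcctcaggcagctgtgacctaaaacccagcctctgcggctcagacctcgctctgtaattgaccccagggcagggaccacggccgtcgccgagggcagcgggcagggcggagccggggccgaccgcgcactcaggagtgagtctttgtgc
DSC2, downstream start: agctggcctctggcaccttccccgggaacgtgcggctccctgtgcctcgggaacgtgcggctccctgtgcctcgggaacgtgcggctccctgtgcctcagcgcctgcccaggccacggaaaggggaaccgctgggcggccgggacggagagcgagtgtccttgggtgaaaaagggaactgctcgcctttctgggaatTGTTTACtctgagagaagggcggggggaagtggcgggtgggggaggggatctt
Each window was searched on both strands for TGTTTAC and TATTTAC (forkhead factors such as FOXA1), CACCTG (the E-box bound by SNAI and ZEB repressors) and AACCGGTT (grainyhead). DSP held the E-box letters, as CAGGTG on the printed strand, starting 178 and 85 bases before the start, and DSC2 held them 156 bases before its upstream start. The forkhead letters TGTTTAC were found 53 bases before the downstream start of DSC2, and the DSC3 window held none of the letters searched. Of the 7 members with an entry, DSG2 and JUP also had E-box matches, and PKP1 and DSG3 had none. Over 35116 promoters of this length, 5.27% held a forkhead match, 17.5% an E-box match and 0.117% a grainyhead match, and a match is a description of the letters alone.

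Which of these genes does each line use? In the siControl libraries JUP, DSP and CDH1 led in RT112, with 132 ± 7.61, 82.1 ± 15.8 and 65.0 ± 8.43 TPM (the deposited unit that divides by gene length, mean ± SD, n = 4). SCaBER was led by JUP at 196 ± 46.2, DSP at 184 ± 42.9 and CDH3 at 182 ± 18.6 TPM, whose ranges overlapped. P-cadherin, encoded by CDH3 and typical of basal epithelial cells, thus ranked 3 in SCaBER and 7 in RT112, where it had 19.1 ± 1.08 TPM. The desmocollins were far down in both lines, DSC3 at 4.96 ± 1.21 and DSC2 at 4.63 ± 1.45 TPM in RT112, and DSC3 at 25.4 ± 8.73 and DSC2 at 19.8 ± 8.01 TPM in SCaBER, and in neither line were the 2 genes apart by more than their ranges. In RT112 the neighbours JUP and DSP, CDH1 and DSG2, DSG2 and PKP3, CDH3 and DSC3, and DSC2 and DSG3 did not overlap, whereas in SCaBER only PKP3 and DSC3, and DSC2 and DSG3, were apart. Since the kit reads transcript ends, dividing by gene length shifts levels between genes: by CPM, DSP led in both lines.

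**Figure D1:**
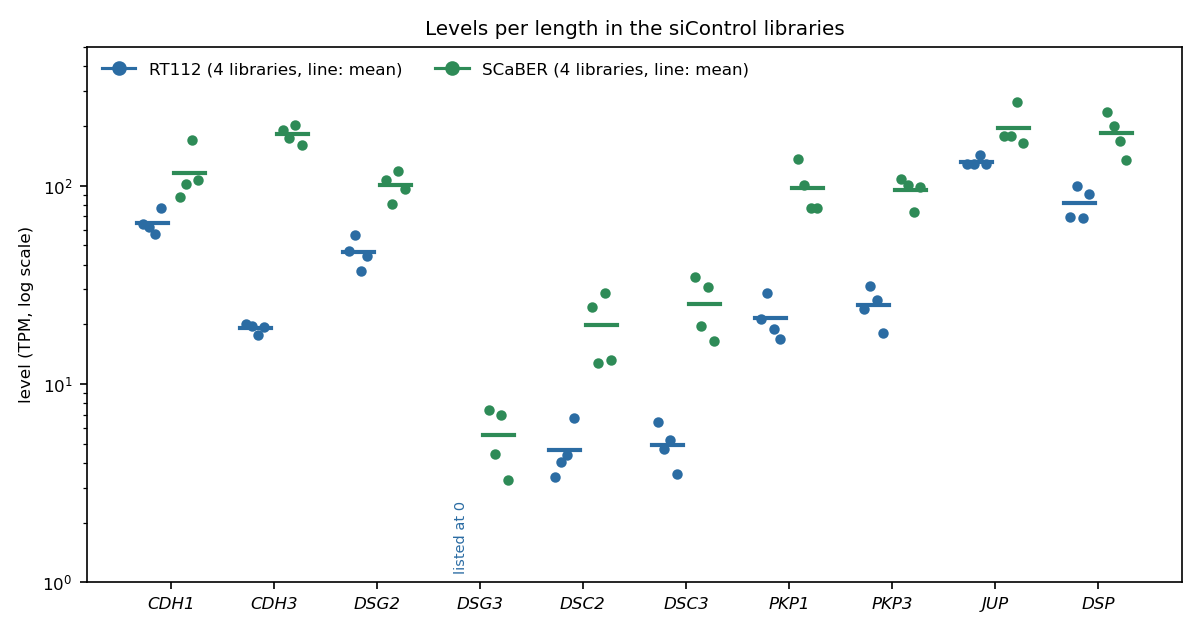
Level of each gene in TPM (log axis) in the 4 siControl libraries of RT112 (blue) and SCaBER (green), with a line at the mean. DSG3 was listed at 0 in RT112, and in TPM SCaBER lies above RT112 with no overlap for each of the 10 genes. By CPM the control ranges of the lines overlapped for CDH1 and JUP. CDH1 had 186 to 237 CPM in RT112 and 217 to 394 in SCaBER.

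All 10 genes had a lower fitted level in RT112 than in SCaBER under the control siRNAs, and 8 passed the test (edgeR adjusted p under 0.05), in a comparison in which 43.4% of 12309 genes did. CDH3 differed most among genes expressed in both, with 57.8 to 65.7 CPM in RT112 and 388 to 479 in SCaBER (log2 fold change -2.85 ± 0.13, edgeR adjusted p = 5.74e-10). DSG3, the desmoglein of basal keratinocytes, had 0 counts in all 8 RT112 libraries and 11.9 ± 4.31 CPM (SD, n = 4) in the SCaBER controls, at least 28.7-fold lower in RT112 with RT112 set at its mean limit of 3 counts per library. DSC3 (-1.95 ± 0.28), PKP1 (-1.80 ± 0.22), DSC2 (-1.70 ± 0.27) and PKP3 (-1.54 ± 0.20) were next, followed by DSP (-0.79 ± 0.17) and DSG2 (-0.73 ± 0.15). CDH1, E-cadherin, gave -0.44 ± 0.17 (edgeR adjusted p = 0.0502, and 0.0393 with DESeq2), and JUP, plakoglobin, -0.16 ± 0.15 (edgeR adjusted p = 0.403). CDH1 passed without SCaBER siControl.1 replicate 1 (-0.55, edgeR adjusted p = 0.0229) and without RT112 siControl.2 replicate 2 (-0.49, edgeR adjusted p = 0.0497). With limma on TPM all 10 members passed as lower in RT112, JUP included (-0.54, limma adjusted p = 0.0174), while 27% instead of 48.9% of all calls were higher in RT112. The median over the members was -1.62, also with DSG3 at its bound, against 0.02 over all genes tested. Together the 10 genes took 0.127 to 0.141% of all counts in the RT112 libraries and 0.217 to 0.316% in SCaBER.

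Other junction genes differed between the lines in either direction, in the comparison in which 43.4% of 12309 genes passed. Of 9 other desmosome genes 5 were tested: EVPL (log2 fold change 1.35 ± 0.29), envoplakin, and PERP (0.61 ± 0.14), a desmosomal membrane protein, were higher in RT112, and PKP2 (-1.37 ± 0.37) and PKP4 (-0.55 ± 0.19), relatives of PKP1, were lower. Of 9 adherens junction genes NECTIN1 (2.27 ± 0.24), NECTIN4 (1.09 ± 0.32) and CTNNB1, beta-catenin (1.02 ± 0.15), were higher, and VCL, vinculin (-1.39 ± 0.16), was lower. Of 10 other cadherins 3 were tested. CDH2, N-cadherin, had 0 counts in the RT112 controls and 88.3 ± 26.1 CPM in SCaBER, at least 212-fold lower in RT112, and CDH13 had 0 counts and 37.8 ± 6.95 CPM, at least 90.8-fold lower.

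Under siFOXA1.1 in RT112 the junction genes split. CDH1, DSC2 and JUP rose and DSP, DSC3 and PKP3 fell, 6 of the 9 members tested, where 32.6% of 11986 genes passed. With limma on TPM 1 member passed higher and 4 lower, with 21.6% of all calls higher instead of 47.9%: DSC2 (0.43, limma adjusted p = 0.242) and JUP (0.09, limma adjusted p = 0.572) lost their calls and DSG2 gained one (-0.54, limma adjusted p = 0.0361). The members' median log2 fold change was 0.11, beside -0.01 over all genes, and the 10 genes together took 0.139 and 0.127% of counts. DSG3 had no counts and was not tested.

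CDH1 had 207 and 186 CPM under siControl.1, 189 and 237 under siControl.2, 507 and 434 under siFOXA1.1, and 203 and 235 under siFOXA1.2. The siFOXA1.1 libraries stood above all others and the siFOXA1.2 libraries lay among the controls. The log2 fold change was 1.34 ± 0.12 under siFOXA1.1 (edgeR adjusted p = 1.52e-07) and 0.12 ± 0.12 under siFOXA1.2 (edgeR adjusted p = 0.807). The difference between the FOXA1 siRNAs was itself past the threshold (1.22 ± 0.14, edgeR adjusted p = 5.99e-06).

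CDH3 had 65.7 and 57.8 CPM under siControl.1, 59.9 and 60.3 under siControl.2, 76.4 and 71.7 under siFOXA1.1, and 99.7 and 95.3 under siFOXA1.2. Every FOXA1 siRNA library was above every control, with siFOXA1.2 the higher pair. The change passed under siFOXA1.2 (0.70 ± 0.16, edgeR adjusted p = 0.0258) and not under siFOXA1.1 (0.42 ± 0.16, edgeR adjusted p = 0.0548), and the siRNAs did not differ past the threshold (-0.28 ± 0.19, edgeR adjusted p = 0.29). CDH3 and CDH1 reads in 1 library share its scaling, so their ratio is free of it. CDH3 made up 20.3 to 24.1% of their summed reads in the 4 controls, 13.1 and 14.2% under siFOXA1.1, and 32.9 and 28.9% under siFOXA1.2. The share thus lay below the controls with 1 siRNA and above them with the other.

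Of the desmocollins, DSC3, which is typical of basal and stratified epithelium, had 23.8 and 19.3 CPM under siControl.1, 16.2 and 12.4 under siControl.2, 3.66 and 4.86 under siFOXA1.1 (25 and 33 counts), and 37.9 and 43.6 under siFOXA1.2. The 3 kinds of library did not overlap: siFOXA1.1 was below every control and siFOXA1.2 above. DSC3 fell by 1.90 ± 0.35 on the log2 scale under siFOXA1.1 (edgeR adjusted p = 0.000409), rose by 1.23 ± 0.29 under siFOXA1.2 (edgeR adjusted p = 0.0328), and differed by -3.13 ± 0.39 between them (edgeR adjusted p = 1.11e-05), the largest difference among the members.

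DSC2, the more widely expressed desmocollin, had 22.2 and 28.8 CPM under siControl.1, 24.8 and 41.97 under siControl.2, 43.2 and 50.4 under siFOXA1.1, and 52.3 and 44.5 under siFOXA1.2. All 4 FOXA1 siRNA libraries were above all 4 controls, the nearest control by little. The change was 0.82 ± 0.24 under siFOXA1.1 (edgeR adjusted p = 0.0143) and 0.75 ± 0.24 under siFOXA1.2 (edgeR adjusted p = 0.149). Without siControl.1 replicate 1, siControl.2 replicate 1 or siFOXA1.1 replicate 2 the siFOXA1.1 call was lost (0.72, 0.65 and 0.67, edgeR adjusted p = 0.0582, 0.061 and 0.107), as it was against siControl.2 alone (0.66, edgeR adjusted p = 0.0985). DSC2 and DSC3 together had 40.99 to 54.3 CPM in the controls, 46.9 and 55.2 under siFOXA1.1, and 90.2 and 88.1 under siFOXA1.2. Under siFOXA1.1, then, the summed level overlapped the controls while the make-up did not. DSC3 took 22.8 to 51.7% of desmocollin reads in the controls, 7.81% (95% Wilson interval 5.35 to 11.3) and 8.8% (6.33 to 12.1) under siFOXA1.1, and 42.003 and 49.5% under siFOXA1.2.

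**Figure D2:**
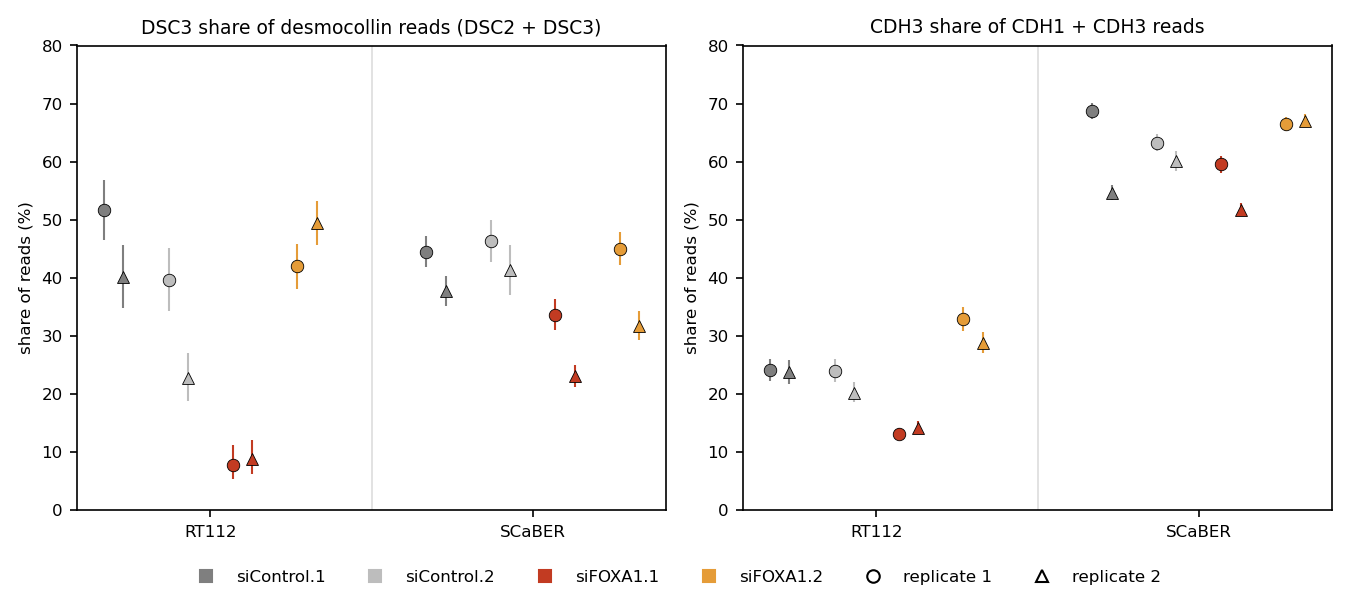
Share of reads (%) taken by DSC3 among DSC2 and DSC3 (left) and by CDH3 among CDH1 and CDH3 (right) in each of the 16 libraries, with 95% Wilson intervals that cover counting error only. In RT112 the siFOXA1.1 libraries (red) lie at 7.81 and 8.8% for DSC3 and at 13.1 and 14.2% for CDH3, below all 4 controls (greys).

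DSP, the desmosome's link to keratin, had 366 and 364 CPM under siControl.1, 497 and 457 under siControl.2, 139.7 and 116 under siFOXA1.1, and 343 and 322 under siFOXA1.2. The siFOXA1.1 libraries were far below the rest, and the siFOXA1.2 libraries lay just under the lowest control. DSP fell by 1.58 ± 0.12 on the log2 scale under siFOXA1.1 (edgeR adjusted p = 2.19e-08), and the value under siFOXA1.2 was -0.31 ± 0.11 (edgeR adjusted p = 0.206), equal in size to that between the control siRNAs (-0.32 ± 0.13, edgeR adjusted p = 0.253). The siRNAs against FOXA1 differed by -1.27 ± 0.13 (edgeR adjusted p = 1.34e-06). PKP3, a plakophilin that binds most desmosomal proteins, had 47.7 and 52.7, 58.02 and 34.2, 25.8 and 25.3, and 34.7 and 41.8 CPM under the same siRNAs in that order. Only the siFOXA1.1 libraries cleared the controls (-0.78 ± 0.25, edgeR adjusted p = 0.0234), and without siControl.2 replicate 1, siControl.1 replicate 2, or either siFOXA1.1 library the call was lost (edgeR adjusted p = 0.111, 0.0612, 0.0741 and 0.0669), as it was against siControl.2 alone (-0.69, edgeR adjusted p = 0.08).

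JUP, found in both kinds of junction, had 332 and 373.4 CPM under siControl.1, 311 and 318 under siControl.2, 421 and 386 under siFOXA1.1, and 356 and 385 under siFOXA1.2. It rose slightly under siFOXA1.1 (0.41 ± 0.10, edgeR adjusted p = 0.00503), with 0.17 ± 0.10 under siFOXA1.2 (edgeR adjusted p = 0.574). The call was lost against siControl.1 alone (0.30, edgeR adjusted p = 0.0789) and, as given above, with limma on TPM. DSG2, the desmoglein of simple epithelia, had 110.4 and 113 CPM under siFOXA1.1 against 121 to 171 in the controls, below all of them, but its change of -0.24 ± 0.15 did not pass (edgeR adjusted p = 0.225). PKP1 overlapped the controls throughout, with 64.4 and 69.5 CPM under siFOXA1.1 and 52.4 to 88.0 in the controls (0.11 ± 0.21, edgeR adjusted p = 0.719). These RT112 values hold TMM scaling. With library totals alone the median of all genes under siFOXA1.1 was -0.14, 36.9% instead of 47.9% of all calls were higher, and the same 6 members passed. In that setting CDH1 was 1.35, JUP 0.42, DSC3 -1.89 and DSP -1.56 relative to that median. The JUP call there was close to the threshold, with a fitted change of 0.28 (edgeR adjusted p = 0.0495).

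**Figure D3:**
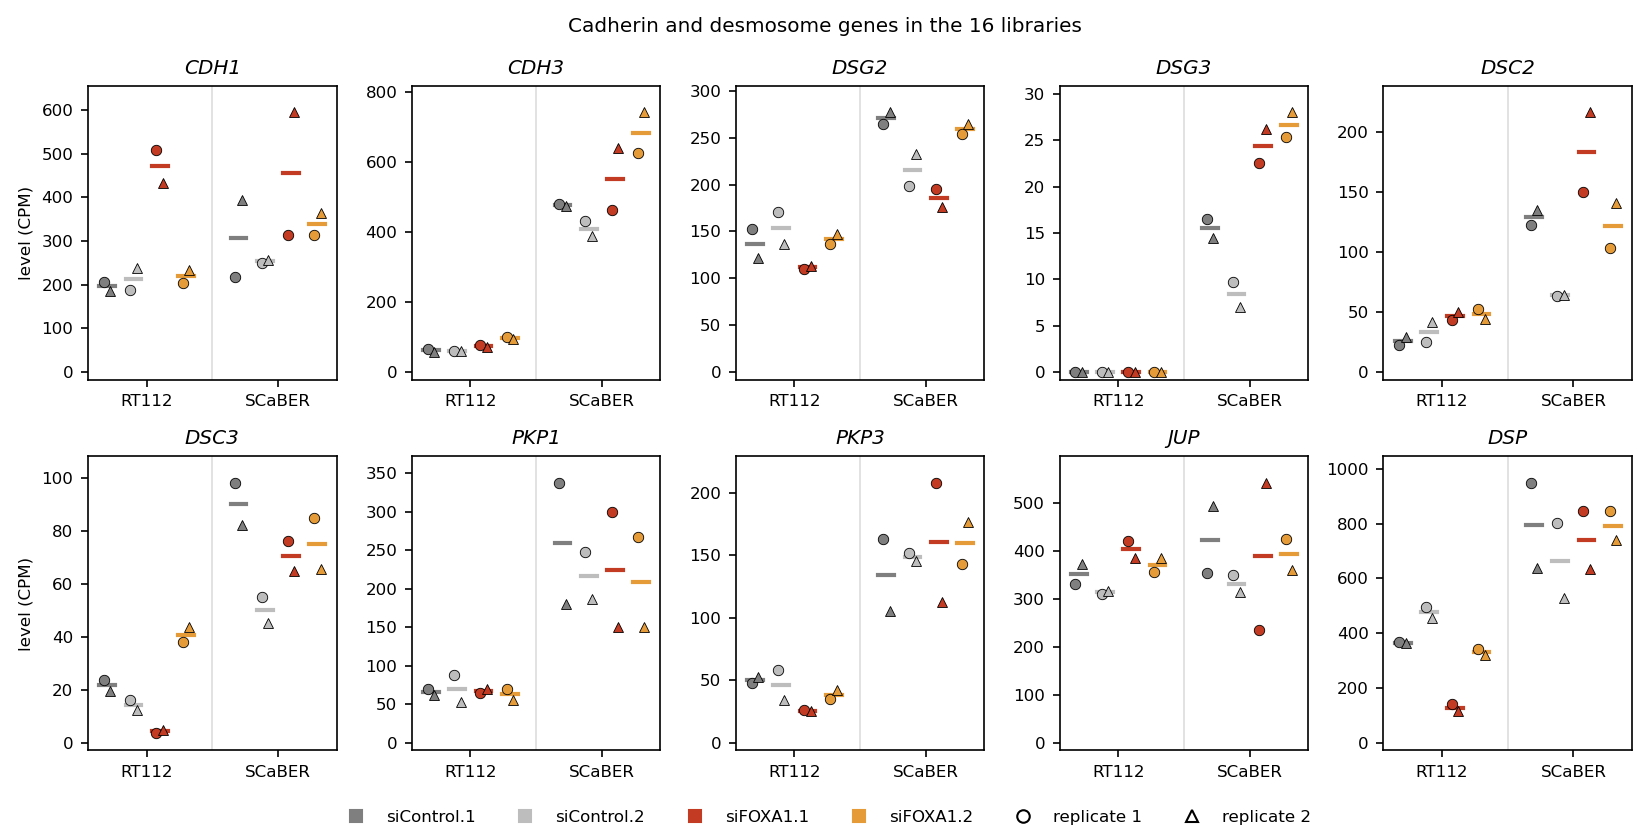
Level in CPM of each gene in the 16 libraries, by line and siRNA (colour) and replicate (shape), with a bar at the mean of 2. In RT112 the siFOXA1.1 libraries (red) stand above the others for CDH1 (507 and 434 CPM) and below them for DSP (139.7 and 116) and DSC3 (3.66 and 4.86).

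Under siFOXA1.2 in RT112, CDH3 and DSC3 were thus the 2 members past the threshold, both higher, where 2.04% of genes were. Each call was lost whichever control or siFOXA1.2 library was left out (edgeR adjusted p = 0.0592 to 0.263 for CDH3 and 0.0691 to 0.366 for DSC3). Directly between the siRNAs, CDH1, DSC3 and DSP were the 3 members past the threshold, where 28.1% of genes were. The other 6 tested lay between -0.47 (PKP3) and 0.24 (JUP). No member passed between the control siRNAs in RT112 (edgeR, 1 at an unadjusted p under 0.05, 0 with DESeq2 and 0 with limma), where 2.36% of genes did, and their values ran from -0.32 (DSP) to 0.65 (DSC3). With the FOXA1 siRNAs pooled, no member passed either (edgeR, 4 at an unadjusted p under 0.05, 0 with DESeq2 and 0 with limma), where 0.108% did, with values from -0.82 (DSP) to 0.85 (CDH1). DSC3 in the pooled comparison was 0.35 ± 0.65, between the values of opposite sign under the single siRNAs. With library totals alone in place of TMM, the share of calls that were higher moved from 46.4 to 36.4% between the FOXA1 siRNAs, from 52.7 to 40.1% between the control siRNAs and from 38.5 to 20% of 13 and 5 calls in the pooled comparison.

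Values that moved along with siFOXA1.1 in RT112 stand beside these changes. The 6 luminal markers summed to 382 to 441 CPM against 759 to 1029 in the controls and 547 to 655 under siFOXA1.2, with 4 of the 4 tested lower. The basal markers did not move as 1 group: KRT5 (0.79 ± 0.20) and CD44 (0.72 ± 0.16) rose and TP63, the p63 factor (-2.53 ± 0.53), fell. The basal markers summed to 317 to 442 CPM, overlapping the controls' 228 to 368. Under siFOXA1.2 the basal sum was 422 to 520 CPM, above every control. The fibroblast markers summed to 103 to 109 CPM against 84.6 to 137 in the controls, with COL1A1 higher by 2.80 ± 0.28, LUM lower (-0.78 ± 0.16), and COL3A1, PDGFRB and DCN at 0. Their sum under siFOXA1.2 was 142 to 146 CPM, also above every control. The leukocyte markers summed to 3.22 CPM at most. The part of these and of the mitochondrial share in the changes was not tested.

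Other junction genes also changed under siFOXA1.1 in RT112, where 32.6% of 11986 genes passed. Of 9 adherens junction genes 4 rose, among them NECTIN4 (log2 fold change 1.05 ± 0.25), VCL (0.80 ± 0.16) and AFDN, afadin (0.70 ± 0.18), and NECTIN1 fell by 0.99 ± 0.13. Nectins are immunoglobulin-like adhesion proteins that afadin ties to actin. NECTIN1 had 99.1 and 108 CPM under siFOXA1.1, and its controls were themselves apart, at 182 and 156 under siControl.1 and 318 and 285 under siControl.2 (-0.77 ± 0.14, edgeR adjusted p = 0.00551). The other 4 did not pass. Of the 5 other desmosome genes tested PKP4 fell by 0.59 ± 0.19 and 4 did not pass. Between the FOXA1 siRNAs, where 28.1% of genes passed, 4 adherens junction genes were higher and 1 lower under siFOXA1.1. They included NECTIN1 at -1.44 ± 0.15, NECTIN4 at 1.19 ± 0.30, VCL at 0.98 ± 0.19 and NECTIN2 at 0.62 ± 0.20. PKP4 was also lower (-0.72 ± 0.21). None of either list passed under siFOXA1.2, where 2.04% of genes did (edgeR, 1 adherens junction gene and 0 other desmosome genes at an unadjusted p under 0.05). None of the other cadherins listed was high enough to be tested in RT112.

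**Figure D4:**
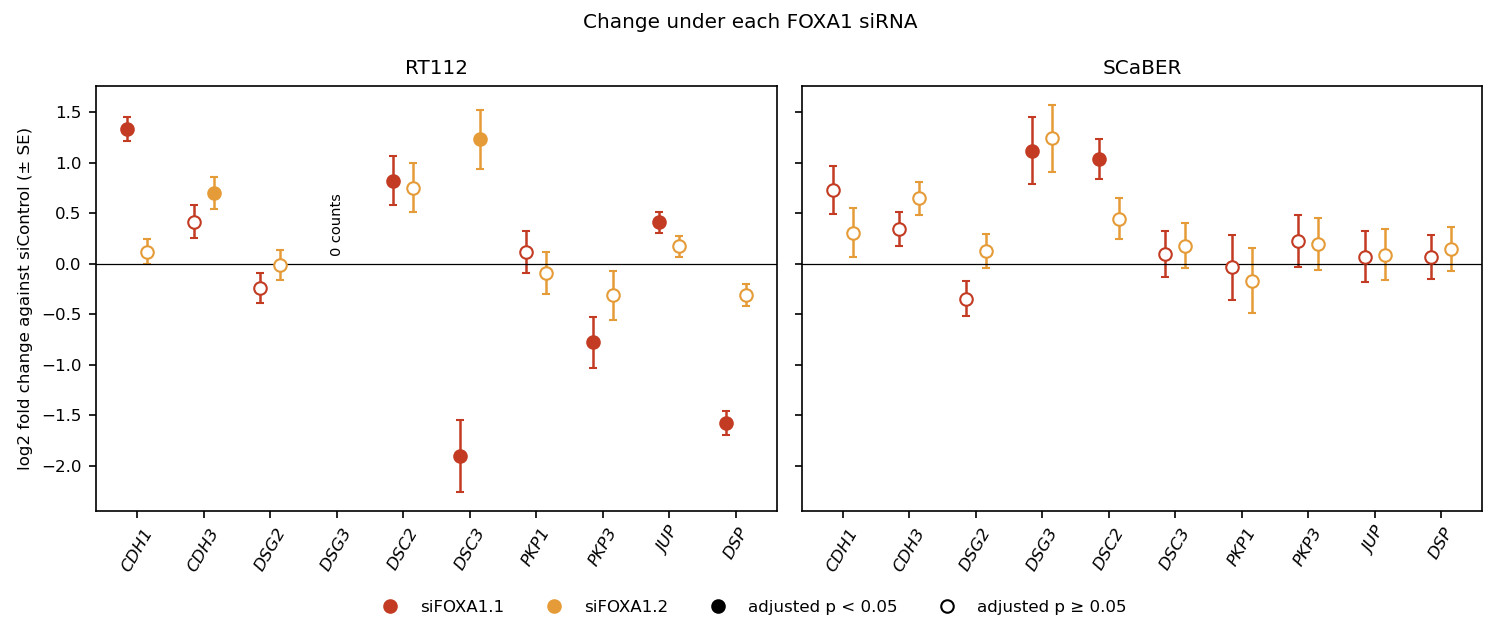
Log2 fold change (± SE) of each gene under siFOXA1.1 (red) and siFOXA1.2 (orange) against the 4 siControl libraries in RT112 (left) and SCaBER (right), with filled points at an edgeR adjusted p under 0.05. In RT112 DSC3 lies at -1.90 under siFOXA1.1 and at 1.23 under siFOXA1.2, and DSP at -1.58 and -0.31.

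In SCaBER, DSC2 and DSG3 were the 2 of 10 members past the threshold under siFOXA1.1, both higher, where 9.26% of genes were. The members' median log2 fold change was 0.16, beside 0.01 over all genes. Between the control siRNAs (siControl.1 against siControl.2) the members' median was larger, at 0.29, so 0.16 lay within the difference between controls.

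DSC2 had 122 and 135 CPM under siControl.1, 63.6 and 64.3 under siControl.2, 150.2 and 216 under siFOXA1.1, and 103 and 141 under siFOXA1.2. The control siRNAs were themselves apart, and only siFOXA1.1 cleared both. Against both controls the change was 1.04 ± 0.20 (edgeR adjusted p = 0.00426), and against siControl.1 alone it was 0.54 (edgeR adjusted p = 0.221). Under siFOXA1.2 it was 0.45 ± 0.20 (edgeR adjusted p = 0.925). The difference between the controls was 1.00 ± 0.24 (edgeR adjusted p = 0.203, and 0.0301 with DESeq2), close in size to the change under siFOXA1.1. That control difference passed without either siFOXA1.1 library (edgeR adjusted p = 0.039 and 0.0408).

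DSG3 had 16.5 and 14.5 CPM under siControl.1, 9.74 and 7.07 under siControl.2, 22.5 and 26.2 under siFOXA1.1, and 25.3 and 28.0 under siFOXA1.2. All 4 FOXA1 siRNA libraries were above all 4 controls, at 119 to 181 counts against 32 to 99. The change was 1.12 ± 0.33 under siFOXA1.1 (edgeR adjusted p = 0.0467) and 1.24 ± 0.33 under siFOXA1.2 (edgeR adjusted p = 0.468), and with the siRNAs pooled 1.11 ± 0.32 (edgeR adjusted p = 0.417). The siFOXA1.1 call was lost whichever of the 8 SCaBER libraries was left out (edgeR adjusted p = 0.0728 to 0.148). DSG3 reads were 2.95 to 5.85% of the desmoglein reads (DSG2 and DSG3) in the controls and 9.05 to 12.9% in the 4 FOXA1 siRNA libraries.

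CDH1 in SCaBER had 217 and 394 CPM under siControl.1, 250.1 and 257 under siControl.2, 315 and 595 under siFOXA1.1, and 314 and 364 under siFOXA1.2. The groups overlapped through siControl.1 replicate 2. The change under siFOXA1.1 was 0.73 ± 0.24 (edgeR adjusted p = 0.0726), and with the replicate number as a block it passed (0.70, edgeR adjusted p = 0.0195). It passed also without siFOXA1.1 replicate 1 (1.097, edgeR adjusted p = 0.00295) or siControl.1 replicate 2 (0.96, edgeR adjusted p = 0.0236), without the filter on low counts (edgeR adjusted p = 0.00254, a setting in which DSG3 was lost at 0.0624), and with DESeq2 (adjusted p = 0.0304). CDH3 had 479 and 475, 431 and 388, 463 and 639, and 625 and 743 CPM under the same siRNAs in that order, and siFOXA1.2 cleared the controls without passing the test (0.65 ± 0.16, edgeR adjusted p = 0.435, and 0.0255 with DESeq2). Its change under siFOXA1.1 was 0.34 ± 0.17 (edgeR adjusted p = 0.234), and 0.53 without siFOXA1.1 replicate 1 (edgeR adjusted p = 0.0499). DSC3 had 75.9 and 64.8 CPM under siFOXA1.1 within control values of 45.3 to 98.2 (0.10 ± 0.23), DSP had 848 and 633 within 529 to 950.5 (0.06 ± 0.22), and neither passed (edgeR adjusted p = 0.858 and 0.911). JUP had 234 and 543 CPM under siFOXA1.1, the widest pair among the members under that siRNA (0.07 ± 0.25). DSG2 had 176 to 195 CPM under siFOXA1.1, below all controls at 198 to 277, but its change of -0.35 ± 0.17 did not pass (edgeR adjusted p = 0.249). PKP1 and PKP3 overlapped the controls, gave -0.04 ± 0.32 and 0.23 ± 0.26 under siFOXA1.1 and did not pass.

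No member passed under siFOXA1.2 in SCaBER (edgeR, 3 at an unadjusted p under 0.05, 1 with DESeq2 and 0 with limma), where 0.042% of genes did, and values ran from -0.17 (PKP1) to 1.24 (DSG3). None passed between the FOXA1 siRNAs (edgeR, 2 at an unadjusted p under 0.05, 0 with DESeq2 and 0 with limma), where 4.85% did, and DSC2 passed without siFOXA1.1 replicate 1 (0.81, edgeR adjusted p = 0.0489). Between the control siRNAs none passed (edgeR, 2 at an unadjusted p under 0.05, 1 with DESeq2 and 0 with limma), where 0.0672% of genes did. Values ran from -0.16 (PKP3) to 1.00 (DSC2), siControl.1 against siControl.2. Pooled, none passed (edgeR, 4 at an unadjusted p under 0.05, 0 with DESeq2 and 0 with limma), where 0.0084% did, with values from -0.11 (PKP1) to 1.11 (DSG3). Of the other junction genes NECTIN4 rose under siFOXA1.1 (1.30 ± 0.36, edgeR adjusted p = 0.0361), and PPL, periplakin, was lower under siFOXA1.1 than under siFOXA1.2 (-1.20 ± 0.29, edgeR adjusted p = 0.0268).

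Did the lines differ in their response? The siFOXA1.1 change was lower in RT112 than in SCaBER for DSC3 (difference of log2 fold changes -2.02 ± 0.36, edgeR adjusted p = 0.00446) and for DSP (-1.65 ± 0.27, edgeR adjusted p = 0.00168), 2 of 9 members, where 3.14% of 13701 genes passed (41.6% of these calls higher in RT112, and 30.6% with library totals alone). Both calls were kept in all 21 alternative fits. In RT112 both genes fell with siFOXA1.1 and in SCaBER their libraries lay within the controls. PKP3 gave -1.02 ± 0.37 (edgeR adjusted p = 0.158), CDH1 0.58 ± 0.31 (edgeR adjusted p = 0.365), DSC2 -0.24 ± 0.32 (edgeR adjusted p = 0.819) and JUP 0.32 ± 0.30 (edgeR adjusted p = 0.693). Without SCaBER siFOXA1.1 replicate 2 the count rose to 5, with CDH1 at 1.07, JUP at 1.00 and PKP3 at -1.42 added. For siFOXA1.2 no member differed past the threshold (edgeR, 1 at an unadjusted p under 0.05, 0 with DESeq2 and 0 with limma), where 0.0438% of genes did, and DSC3 gave 1.05 ± 0.33 (edgeR adjusted p = 0.557). DSG3 has no such value, since it had no counts in RT112.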

How the data were processed

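The authors deposited raw counts per gene and TPM values for 16 libraries of 3′ mRNA sequencing. The deposited settings give TrimGalore 0.6.2, GENCODE 29, a minimum read quality of 20 and length of 10, and gene counting within the aligner. The submitters' processing notes name STAR 2.6.1a and hg38. The study's methods name hg19 instead. TPM, as the authors deposited it, divides by gene length, although the kit reads transcript ends. No molecular identifiers were counted, so intervals and limits cover counting error only. The labels give the siRNA dose in nM and the study's methods in ng.

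CPM here is the count over the library total. Tests were edgeR 4.0.16 in R 4.3.3 (TMM scaling, filterByExpr, quasi-likelihood F test, Benjamini-Hochberg adjustment over all genes tested, threshold 0.05), with 11986 genes in RT112, 11902 in SCaBER, 12309 between lines and 13701 for the difference of changes. Fold changes are edgeR's, and the SE is the absolute log2 fold change over the square root of F. The test was run on counts simulated for the RT112 design with a smaller spread than these libraries had. The fitted biological coefficient of variation was 0.295 in RT112 and 0.352 in SCaBER. That check thus does not measure error rates or power in these data. Alternatives were library totals alone, no filter, the replicate number as a block, DESeq2 1.42.0, limma 3.58.1 on log2(TPM + 1) for genes with a mean of at least 1 TPM, each control siRNA alone, and each library left out. Replicate libraries differed beyond sampling noise (chi-square per degree of freedom 8.56 to 36.8), so none was counted as a repeat deposit. The labels call the replicate number an experiment batch, which pairs the libraries. Deviations of libraries with the same number correlated at -0.0181 to 0.0139 in RT112 and 0.0185 to 0.198 in SCaBER over 6 pairs of siRNAs each. The members and lists were chosen with earlier results of these data known. All 10 members are covered in each comparison, by name or within the range given. Of other junction genes, up to 4 per list past the threshold are named in order of absolute log2 fold change. Promoter sequences are from RefSeq (GRCh38.p14), and 7 of the 10 members had one: CDH1, CDH3 and PKP3 did not. Figures and tables were made with Python 3.11.15.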

Additional observations from a re-analysis of the deposited data

Results flagged for a closer look

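A response that differed between the cell lines by the test of the difference itself was seen for 2 genes under siFOXA1.1. For DSC3 the log2 fold change was lower in RT112 than in SCaBER by a difference of -2.02, with 3.66 and 4.86 CPM under siFOXA1.1 in RT112 against 12.4 to 23.8 in its controls, and 75.9 and 64.8 CPM in SCaBER against 45.3 to 98.2. For DSP the difference was -1.65, with 139.7 and 116 CPM against 364 to 497 in RT112, and 848 and 633 CPM against 529 to 950.5 in SCaBER. Dixon's outlier test flagged no library for any member, in the 38 groups of 4 libraries of a line and target. Each group mixed 2 siRNAs and was small, so the test could flag only extreme gaps. It cannot show that no library stood apart. In SCaBER, siFOXA1.1 replicate 2 had 595 CPM of CDH1 and was not flagged, although the other FOXA1 siRNA libraries had 314 to 364.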

How the results depend on the processing

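Over 1818 values of single members under an alternative, 1750 kept their side of the threshold, 43 lost a call, 25 gained one and none reversed a call. Only 23 member results passed in the main fits, so the 43 losses fall on the alternatives of these alone. In 104 values the sign differed from the main fit with no call in either. CDH1, DSC3 and DSP under siFOXA1.1 in RT112 passed under all 15 alternatives, over ranges of 1.00 to 1.41, -2.23 to -1.53 and -1.86 to -1.42 (log2). The replicate block left the number of members called at 6 under siFOXA1.1 in RT112 and at 2 under siFOXA1.2, and raised it from 2 to 3 under siFOXA1.1 in SCaBER by adding CDH1, its only changed call. Members called under siFOXA1.2 in RT112 were 0 with limma on TPM or siControl.1 alone and 1 with siControl.2 alone. Under siFOXA1.1 in SCaBER they were 1 with library totals alone and 0 with limma or siControl.1 alone. DESeq2 called 1 under siFOXA1.2 in SCaBER, and no filter and DESeq2 each called 1 between the SCaBER controls. With 1 library left out the counts ran from 4 to 6 under siFOXA1.1 and 0 to 2 under siFOXA1.2 in RT112, from 3 to 3 between these siRNAs, from 0 to 0 between the RT112 controls and in the pooled RT112 comparison, from 1 to 3 under siFOXA1.1, 0 to 0 under siFOXA1.2, 0 to 1 between the FOXA1 siRNAs, 0 to 1 between the controls and 0 to 0 pooled in SCaBER, from 8 to 9 between the lines, and from 2 to 5 and 0 to 0 for the differences of the siFOXA1.1 and siFOXA1.2 changes. Over all genes, calls without the filter were 376 instead of 245 under siFOXA1.2, 449 instead of 283 between controls and 123 instead of 13 pooled in RT112, 42 instead of 5, 91 instead of 8 and 213 instead of 1 for the same comparisons in SCaBER, and 732 instead of 430 and 66 instead of 6 for the differences of changes. In that order of comparisons DESeq2 gave 383 under siFOXA1.2 and 179 pooled in RT112, 38, 70 and 36 in SCaBER, and 777 and 36, with 885 instead of 577 between the FOXA1 siRNAs in SCaBER. With limma they were 54, 46 and 1 in RT112, 0 under siFOXA1.2, 1 between controls, 583 instead of 1102 under siFOXA1.1 and 224 between the FOXA1 siRNAs in SCaBER, and 3 for the difference under siFOXA1.2. The block gave 0 pooled in either line and 35 between the SCaBER controls, library totals gave 5 pooled in RT112, siControl.2 alone gave 141 under siFOXA1.2 in RT112 and siControl.1 alone 707 under siFOXA1.1 in SCaBER. The cause of these shifts was not tested. With 2 libraries per siRNA, a library left alone is assumed to vary like the others, and low levels such as DSC3 at 25 counts limit precision.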
